A study of Mus musculus with 6 samples.

Results

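Metallothioneins and zinc transporters hold and move the zinc of a cell, and 10 genes of these families were followed here in mouse keratinocytes that carry the v-ras-Ha oncogene, with and without blockade of the interleukin-1 (IL-1) receptor. The 10 genes were Mt1, Mt2, Mt4, Mtf1, Slc39a1, Slc39a4, Slc39a6, Slc39a10, Slc39a14 and Slc30a1. They were found by their gene name in the scanner files, where 17 probes carried one of these names among 27845 gene names in all. All 10 genes had a probe, and 16 of the 17 probes were well above background on every array of at least 1 treatment group.

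The cells were primary keratinocytes, isolated together with hair follicle buds from the newborn epidermis of wild type mice. All cultures of both groups were transduced with v-ras-Ha by adenovirus at 10 viral particles per cell, so no culture without the oncogene was compared. Anakinra, the recombinant form of the natural antagonist of the IL-1 receptor, was given to 3 cultures at 5 ug/ml, starting 5 hours after transduction and renewed after 2 days. The 3 control cultures received the buffer PBS. All were grown for 3 days from that point, and total RNA was hybridised to Agilent one-colour arrays, 1 array per culture. The labels do not say whether the 3 cultures of a group came from separate animals, so the p-values here cover the spread among these cultures alone, which may be technical.

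Metallothioneins are small cysteine-rich proteins that bind zinc and copper ions and release them again. Their genes respond to zinc through MTF-1, a zinc-finger transcription factor that binds metal response elements when cytosolic zinc is high, and also to glucocorticoids and inflammatory cytokines. ZIP proteins, encoded by the Slc39a genes, carry zinc into the cytosol, and ZnT proteins, encoded by the Slc30a genes, carry it out of the cytosol into vesicles or out of the cell. The epidermis depends on this traffic: loss of human SLC39A4 causes acrodermatitis enteropathica, an inherited zinc deficiency with skin lesions.

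Values are given as scaled log2 signal, the log2 of the processed spot intensity minus the log2 of the 75th percentile of the same array, so that 1 unit is a doubling. That percentile ran from 864 to 1006 in PBS and from 1002 to 1087 in Anakinra. The share of probes well above background ran from 62.1% to 70.7% in PBS and from 55.2% to 86.3% in Anakinra, where Anakinra 2 had the highest share. Both groups were spread over 2 slides: slide 1 carried 2 of the PBS arrays (2 and 3) beside Anakinra 1, and slide 2 the remaining 3 arrays. All 8 keratinocyte markers, such as Krt5, Krt14 and Trp63, were above background on all 6 arrays, with a median difference of -0.04 between the groups.

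Among the 10 genes, the pair of ubiquitous metallothioneins and the importer Slc39a4 were lower under Anakinra, and the importer Slc39a10 was higher. Mt2 was 1.84-fold lower, Mt1 1.47-fold lower and Slc39a4 2.35-fold lower, while Slc39a10 was 1.59-fold higher. At the brightest passing probe, the other 6 genes differed by 0.27 or less on the log2 scale. Further probes of these genes differed by up to 0.95, for an Mt4 probe too dim to enter the test. The genes count as selected on their scaled log2 signals in this same contrast, Anakinra against PBS, so their differences describe the data and are given without a test. In a linear model over all 16495 genes tested, with an adjusted p under 0.05 as the threshold, Mt1, Mt2 and Slc39a4 lay past it and 7 did not. The same threshold was passed by 1.77% of all genes tested, 0.800% lower and 0.970% higher, and nothing is read from this comparison because the contrast chose the genes. With the slide as a block, 0 of the 10 passed, where 0.321% of all genes did. With per-array medians, with no filter on dim probes, or without any 1 of the PBS arrays, 0 passed either. Over all genes, 8 were higher and 49 lower with per-array medians, and 7 and 29 of 27573 with no dim filter. These counts were 1 and 20 of 16665 without PBS 1, and 1 and 7 of 17542 without PBS 2. Without PBS 3 they were 30 and 34 of 16521. Under per-array medians all 10 genes shared an SE of 0.45, so the 0 passing there says little about single genes. The median spot of Anakinra 2 was 138, against 49.0 to 73.3 on the other arrays. With the mean over probes Mt2 and Slc39a4 passed, where 140 of all 16495 genes were called higher and 113 lower. With array weights the same genes passed, where 121 of 16495 were higher and 118 lower. With genes above background on all 6 arrays Slc39a10 passed besides Mt1, Mt2 and Slc39a4, where 338 of 14133 were higher and 240 lower. Without Anakinra 1 only Mt2 passed, where 43 of 16870 genes were higher and 41 lower. Without Anakinra 3 only Mt2 passed, where 71 of 16617 were higher and 57 lower. Without Anakinra 2 Mt2 and Slc39a4 passed, where 97 of 16479 were higher and 137 lower. The calls over all genes thus moved with the setting too, and nothing is read from the member counts.

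**Figure D1:**
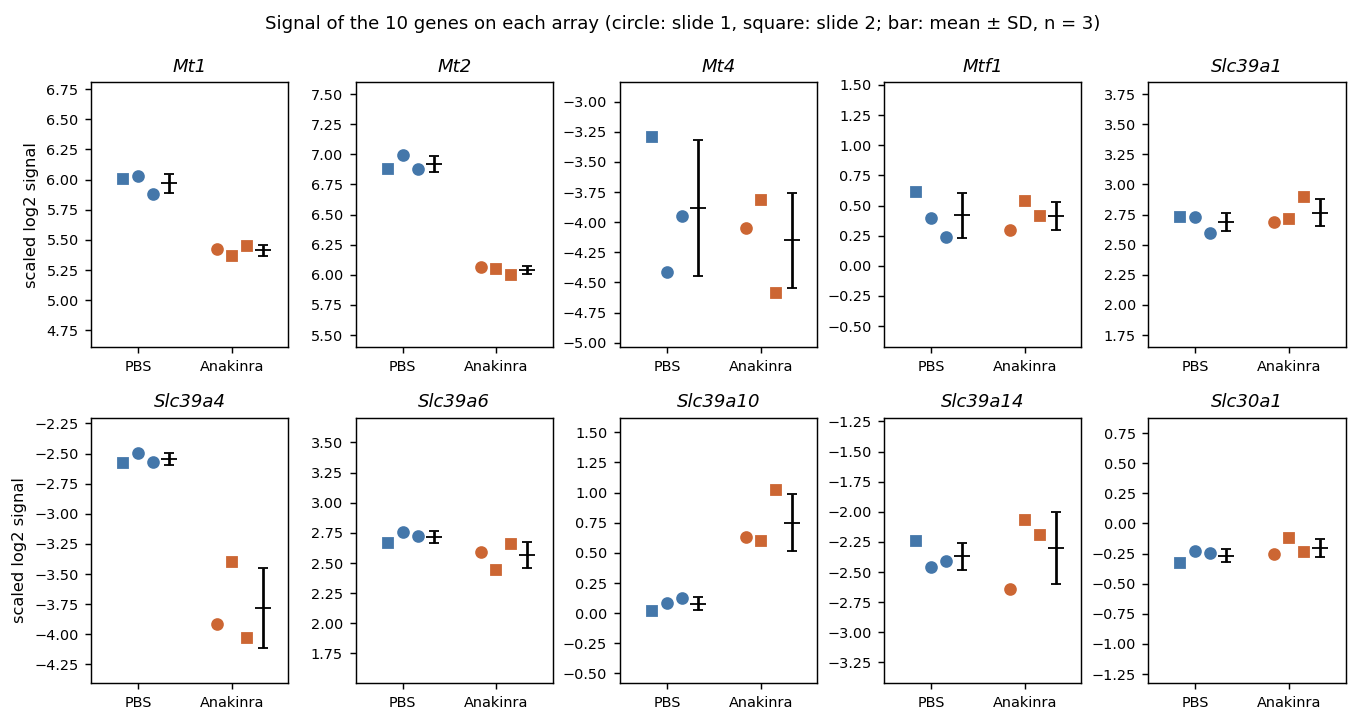
Scaled log2 signal (vertical axis) of the brightest passing probe of each of the 10 genes on the 3 PBS and 3 Anakinra arrays, with circles for slide 1, squares for slide 2 and a black bar for the mean ± SD. Every panel spans the same range of the log2 scale, and the groups lie clearly apart in the panels of Mt1, Mt2, Slc39a4 and Slc39a10.

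Mt2 encodes metallothionein 2, which together with metallothionein 1 is made in most tissues. Its probe lies at chr8:97062600-97062659 on mouse build mm8, the build of the array design. The scaled log2 signal of Mt2 was 6.88, 6.995 and 6.88 on PBS arrays 1, 2 and 3 and 6.06, 6.05 and 5.999 on Anakinra arrays 1, 2 and 3. All 3 Anakinra values lay below all 3 PBS values, with a gap many times the spread within either group, which was 0.067 (SD, n = 3) in PBS and 0.034 in Anakinra. The difference was -0.88 ± 0.07 (SE, n = 3 per group). It was -0.87 within slide 1 and -0.86 within slide 2.

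Mt1 was read by a pair of probes. The first, at chr8:97069240-97069299, was printed 10 times on each array. The SD over the 10 spots ran from 0.030 to 0.060 on the 6 arrays. It measures the spread of spots within 1 array only and leaves out differences between arrays, slides and cultures. Averaged per array, Mt1 stood at 6.001, 6.03 and 5.88 in PBS against 5.43, 5.36 and 5.45 in Anakinra. The lowest of all PBS spots, at 5.82, was above the highest of all Anakinra spots, at 5.54. Spots of 1 array are not replicate cultures, so this adds no replication to the 3 arrays in each group. The difference was -0.56 ± 0.07 (SE, n = 3 per group), with -0.53 within slide 1 and -0.60 within slide 2. When each array was scaled by its median in place of the 75th percentile, Mt1 was at -0.89, while the median of all genes tested moved from 0.01 to -0.32. Relative to that median Mt1 was at -0.57 under both scalings. This holds by construction, since each scaling subtracts 1 constant per array and so shifts every gene alike.

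The other Mt1 probe lies 5-prime of the first on the same strand, at chr8:97069073-97069132, and gave a far weaker signal. It gave -2.14, -1.91 and -1.92 in PBS against -2.25, -2.22 and -2.19 in Anakinra. The groups did not overlap here either, but the difference was smaller, at -0.23 ± 0.08 (SE from the SDs of both groups, n = 3 each, as for every further probe of a gene), with -0.34 within slide 1 and -0.07 within slide 2. Averaged over both probes, Mt1 was at -0.39.

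The stretches upstream of these genes are shown because metallothionein genes are the best known carriers of metal response elements. The core of the element was searched as TGCACNC or TGCGCNC on both strands, where N is any base and neither form can overlap the other at the same position, in RefSeq windows of 300 bases that run from 250 before the annotated start to 50 after it, on build GRCm38.p6. Windows were found for 7 of the 10 genes, with 2 starts for Slc39a10; Slc39a4, Slc39a6 and Slc39a14 had none. Capitals mark a match, and the 250 bases before the start are printed on the strand of the gene.
Mt1, chr8:94178839-94179088, plus strand: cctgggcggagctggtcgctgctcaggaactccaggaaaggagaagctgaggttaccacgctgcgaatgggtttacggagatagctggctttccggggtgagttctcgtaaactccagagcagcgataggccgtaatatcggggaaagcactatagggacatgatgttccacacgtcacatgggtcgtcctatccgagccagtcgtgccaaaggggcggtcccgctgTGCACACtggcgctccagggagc
Mt2, chr8:94172368-94172617, plus strand: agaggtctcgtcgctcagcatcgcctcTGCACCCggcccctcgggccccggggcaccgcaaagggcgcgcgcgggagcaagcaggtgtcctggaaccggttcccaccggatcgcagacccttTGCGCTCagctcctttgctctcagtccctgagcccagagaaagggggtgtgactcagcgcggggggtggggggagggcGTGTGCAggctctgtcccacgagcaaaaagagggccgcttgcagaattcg
Slc30a1, chr1:191906531-191906780, plus strand: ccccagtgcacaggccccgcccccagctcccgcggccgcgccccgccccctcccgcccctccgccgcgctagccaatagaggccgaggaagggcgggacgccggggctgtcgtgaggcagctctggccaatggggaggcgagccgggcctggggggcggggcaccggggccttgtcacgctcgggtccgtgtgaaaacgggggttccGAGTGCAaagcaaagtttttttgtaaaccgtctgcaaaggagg
Slc39a10, chr1:46853619-46853868, minus strand: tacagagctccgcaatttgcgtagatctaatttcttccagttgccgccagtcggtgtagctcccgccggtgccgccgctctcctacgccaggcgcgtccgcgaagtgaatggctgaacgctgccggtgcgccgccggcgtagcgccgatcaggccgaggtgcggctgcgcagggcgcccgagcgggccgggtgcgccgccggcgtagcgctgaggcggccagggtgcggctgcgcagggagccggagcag
The 300-base window held 4 matches for Mt2, of which 3 lie in the printed part, and 3 for Mt1, of which 1 does. The other Mt1 matches begin at bases 3 and 21 counted from the annotated start, outside the printed part. For Slc30a1 it held 2 matches, 1 of them printed, and for Mt4 it held 1. The windows of Mtf1 and Slc39a1 and both of Slc39a10 held none. Among all 32851 windows of this length, 25.7% held at least 1 match, 1.97% at least 3 and 0.517% at least 4. A match is a run of letters and not a measured binding site, and a window without a match says nothing about the factor. The windows rest on annotated starts. The start used in these cells was not measured, so elements of a gene may lie outside its window or its printed part.

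Mt4 encodes a metallothionein of stratified squamous epithelia, formed where keratinocytes differentiate. It lies in the same cluster as Mt1 and Mt2: the Mt4 probe starts 35216 bases before that of Mt2, which starts 6640 bases before that of Mt1. The brighter Mt4 probe, placed at chr8:97027384-97027922, gave -3.29, -4.41 and -3.95 in PBS and -4.04, -3.82 and -4.59 in Anakinra. These values overlap, and the SD in PBS was 0.56, against 0.080 for Mt1. The difference was -0.27 ± 0.35 (SE, n = 3 per group), with 0.14 within slide 1 and -0.91 within slide 2, so the sign differed between the slides. The fellow Mt4 probe, whose placement overlaps it at chr8:97027368-97027906, was above background on 1 of the 3 PBS arrays and 2 of the 3 Anakinra arrays. It was the only member probe that did not enter the test, and its values ran from -7.28 to -5.10 in PBS and from -6.92 to -4.27 in Anakinra. Its difference was 0.95 ± 1.03, opposite in sign to that of the brighter probe. Neither probe separated the groups.

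Mtf1, the gene of the zinc-sensing factor itself, had 3 probes. The brightest, at chr4:124351425-124351484, gave 0.61, 0.40 and 0.24 in PBS and 0.29, 0.53 and 0.41 in Anakinra. Each Anakinra value fell within the PBS range, and the difference was -0.01 ± 0.12 (SE, n = 3 per group). The probe at chr4:124307281-124307340 gave values from -1.01 to -0.98 in PBS and from -1.12 to -0.60 in Anakinra, a difference of 0.13 ± 0.15. The dimmest, at chr4:124349872-124349931, was above background on 5 of the 6 arrays and stood at -0.21 ± 0.32. None of the 3 Mtf1 probes separated the groups.

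Slc39a4 encodes ZIP4, the importer of dietary zinc in the gut, and showed the largest difference of the 10 genes, except with normexp background correction. Its probe at chr15:76439691-76439750 gave -2.58, -2.49 and -2.57 in PBS and -3.91, -3.40 and -4.03 in Anakinra. The 3 PBS values lay within 0.1 of each other and all above the Anakinra values, of which Anakinra 2 was the highest. The difference was -1.23 ± 0.18 (SE, n = 3 per group), with -1.38 within slide 1 and -1.13 within slide 2. Slc39a4 was a dim gene, with processed signals of 144, 175 and 169 in PBS against 66.5, 103 and 65.3 in Anakinra, and the size of its difference depended on the background correction. With normexp it was at -0.75, where Mt2 was at -0.83, and with quantile scaling at -1.60.

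Slc39a10 encodes ZIP10, an importer at the cell surface whose gene MTF-1 is known to repress when zinc is ample. It was the only gene of the 10 whose groups were apart with Anakinra higher. Its probe at chr1:46753044-46753103 gave 0.02, 0.09 and 0.12 in PBS and 0.63, 0.60 and 1.02 in Anakinra. Anakinra 3 stood above the other Anakinra arrays, and the SD was 0.24 in that group and 0.052 in PBS. The difference was 0.67 ± 0.13 (SE, n = 3 per group), with 0.53 within slide 1 and 0.79 within slide 2. Without Anakinra 3 it was 0.54, and with per-array medians 0.34. The gene did not pass the threshold over all genes. It did when genes had to be above background on all 6 arrays, where 338 of 14133 genes were called higher. Nothing is read from either outcome, because the contrast chose the gene.

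Slc39a6 encodes ZIP6, a relative of ZIP10 with which it can pair. Its probe, on chromosome 18, gave 2.66, 2.76 and 2.73 in PBS and 2.59, 2.45 and 2.66 in Anakinra. The groups just failed to touch, since the highest Anakinra value lay 0.0049 below the lowest PBS value. The difference of -0.15 ± 0.08 (SE, n = 3 per group) was of the order of the spread within the Anakinra group, whose SD was 0.11.

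Slc39a1 encodes ZIP1, an importer found in most cell types. The probe at chr3:90339300-90339359 gave 2.73, 2.73 and 2.60 in PBS and 2.69, 2.72 and 2.90 in Anakinra, which overlap. The difference was 0.08 ± 0.09 (SE, n = 3 per group). A further probe under this name, at chr3:90338379-90338438, is placed on the opposite strand in the array design, so it need not read the Slc39a1 transcript. It stood at -0.31 ± 0.20 with overlapping groups. Averaging both probes turned the sign for Slc39a1, to -0.12.

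Slc39a14 encodes ZIP14, an importer of zinc and iron that the liver makes in larger amounts during the acute-phase response. The brighter of its probes, at chr14:69038678-69038737, gave -2.24, -2.46 and -2.41 in PBS and -2.64, -2.07 and -2.19 in Anakinra. Anakinra 1 was below all PBS arrays and the other Anakinra arrays above them. The difference was 0.07 ± 0.17 (SE, n = 3 per group), and the dimmer probe, at chr14:69041573-69041632, stood at -0.10 ± 0.23. The slides did not share a sign for either probe, and neither separated the groups.

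Slc30a1 encodes ZnT1, the exporter at the plasma membrane and an established target of MTF-1. The probe at chr1:193610329-193610388 gave -0.33, -0.23 and -0.25 in PBS and -0.25, -0.12 and -0.24 in Anakinra. The groups overlapped, and the difference was 0.06 ± 0.07 (SE, n = 3 per group). The dimmer probe, at chr1:193613496-193613555, stood at 0.34 ± 0.21, with 0.0007 within slide 1 and 0.66 within slide 2, where Anakinra 3 was the highest at -0.63. Neither probe separated the groups, and the sign for the brighter one turned negative within slide 1, with normexp and with per-array medians.

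**Figure D2:**
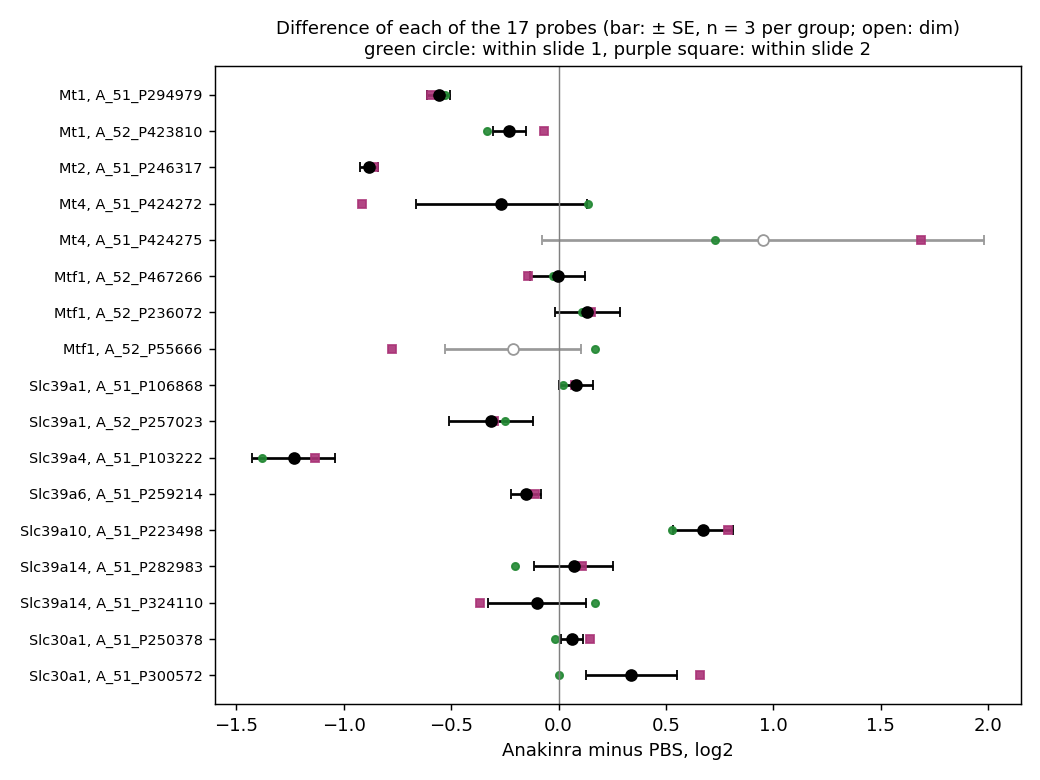
Difference Anakinra minus PBS on the log2 scale (horizontal axis) for each of the 17 probes, with bars for ± SE from the SDs of the 2 groups, open symbols for probes above background on fewer than 6 arrays, green circles for slide 1 and purple squares for slide 2. Within both slides the first Mt1 probe, Mt2 and Slc39a4 lie well below 0 and Slc39a10 above it, while the slides fall on opposite sides of 0 for 5 probes, among them both of Slc39a14 and the brighter one of Mt4.

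In all, the 3 values of Anakinra and of PBS did not overlap in 5 of the 10 genes, 4 lower and 1 higher, where 26.2% of all genes tested had groups apart, 13.8% lower and 12.5% higher. The median difference over the 10 genes was -0.08, beside 0.01 over all genes tested. Per-array medians lower every gene alike and so leave the 10 genes where they were relative to the median of all genes. Since these were whole cultures, fewer cells of a type and less RNA per cell cannot be told apart.

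The rest of the 3 families showed no call. Of 19 further genes, namely Mt3, 9 ZIP and 9 ZnT genes, 14 were tested and 0 passed in either direction by limma. Over all genes tested 1.77% passed, so 0 of 14 is near that share and sets these genes apart from nothing. Of the 14, 1 gene had an unadjusted limma p under 0.05, where 16.1% of all genes tested had one. That gene was Slc30a6, which encodes a subunit of the zinc transporter of the Golgi. It gave -0.76, -0.76 and -0.72 in PBS and -0.53, -0.59 and -0.50 in Anakinra. Its groups did not overlap, and the limma difference was 0.21 ± 0.06 (SE, 3 arrays a group; adjusted p = 0.188).

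Mt3, the metallothionein known from the brain, lies in the cluster of Mt1 and Mt2 and stood at 0.19 ± 0.15 (limma adjusted p = 0.596). The 8 tested ZIP genes had a median of 0.03 and ran from -0.32 for Slc39a2 to 0.20 for Slc39a9. Slc39a2, which encodes a ZIP known from differentiating keratinocytes, cleared background on 2 of the 3 arrays in Anakinra and had an SE of 0.73, so little can be said of its size. Slc39a5 cleared background on 1 of the 3 arrays in Anakinra and stood at -0.11 ± 1.16. Slc39a7, the ZIP of the endoplasmic reticulum, stood at -0.01 ± 0.07. Slc39a8, whose protein also carries manganese and cadmium, stood at 0.07 ± 0.11, and Slc39a3, Slc39a13 and Slc39a11 at 0.17 ± 0.08, 0.12 ± 0.07 and -0.16 ± 0.10. The 5 tested ZnT genes had a median of 0.05, and all 5 differences lay between 0.01, for Slc30a9, and 0.21, for Slc30a6. Slc30a5, whose protein pairs with that of Slc30a6, stood at 0.04 ± 0.08, and Slc30a4 and Slc30a7 at 0.05 ± 0.14 and 0.08 ± 0.09. Slc39a12, Slc30a2, Slc30a3, Slc30a8 and Slc30a10 had no probe that was above background on every array of a group. Per-array medians lower all genes alike, so the signs of these small differences depend on the scaling.

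**Figure D3:**
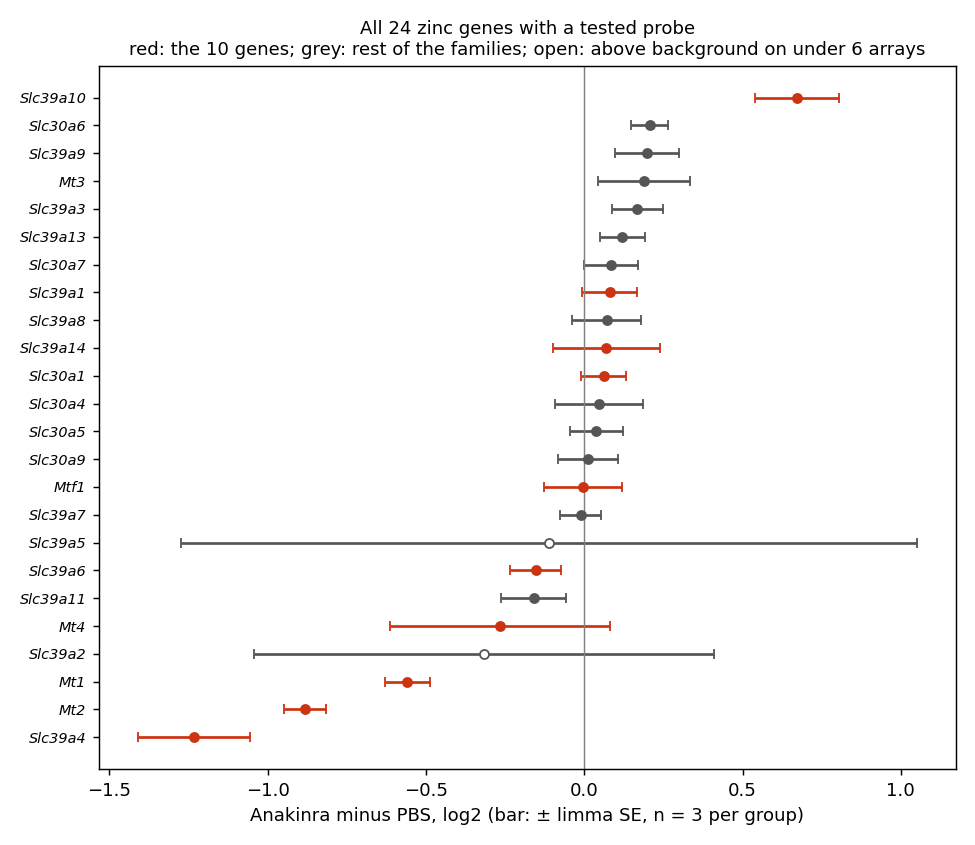
Difference Anakinra minus PBS on the log2 scale (horizontal axis) with bars for ± limma SE, for the 10 genes in red and the 14 further tested genes in grey, ordered by size. Slc39a4, Mt2 and Mt1 form the lower end and Slc39a10 the upper end, and the 14 others lie between -0.32 and 0.21, with wide bars for the dim genes Slc39a2 and Slc39a5.

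Lists of genes that share a metal, an inducer or a cell state with the metallothioneins were counted beside them. Of all genes tested, 16.1% had an unadjusted p under 0.05, which is the share to set beside the unadjusted counts of these lists. Of 11 tested copper genes, 0 passed by limma in either direction and 5 had an unadjusted p under 0.05, with a median of -0.18. The copper carrier gene Slc31a2 stood at -0.32 ± 0.07 (limma adjusted p = 0.0957) and the copper pump gene Atp7a, whose protein loads copper enzymes, at 0.43 ± 0.11 (limma adjusted p = 0.163). Of 11 iron genes 2 lay past the threshold on the lower side and 9 did not pass, with a median of -0.23. An unadjusted p under 0.05 was found for 6 iron genes, with the 2 past the threshold among them. Those 2 were Lcn2, which sequesters iron carriers, and ceruloplasmin, Cp, a copper-bearing ferroxidase. Each cleared background on all 3 arrays in PBS but on 1 of 3 in Anakinra, so they entered the test through the group where they are high, and their differences are given as a description. Lcn2 was at -4.75 and Cp at -2.98, and with normexp they were at -2.91 and -1.36, so their size is uncertain. With the slide as a block neither gene was called. Without any 1 of the PBS arrays neither was called, and without any 1 of the Anakinra arrays 1 iron gene was called lower. Over the arrays left out, Lcn2 lay between -5.02 and -4.48 and Cp between -3.20 and -2.67.

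Of 11 glucocorticoid-responsive genes, 0 passed by limma and 4 had an unadjusted p under 0.05, with a median of -0.01. The nearest were Cebpd, a transcription factor gene also induced by cytokines, at -0.87 ± 0.14 (limma adjusted p = 0.0578) and Tsc22d3, a classical glucocorticoid target, at -0.33 ± 0.08 (limma adjusted p = 0.126). Of 13 Nrf2 and oxidative stress genes, 0 passed and 5 had an unadjusted p under 0.05, with a median of 0.02. Glutathione reductase, Gsr, stood at -0.49 ± 0.08 (limma adjusted p = 0.0649) and sulfiredoxin, Srxn1, at 0.26 ± 0.06 (limma adjusted p = 0.108).

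A pair of lists moved strongly beside the zinc genes. Of 11 tested IL-1 and NF-kB target genes, 10 were called lower, where 0.800% of all genes tested were. Their median was -2.63, with Cxcl5 at -5.06. Of the 10, Cxcl2 and Csf3 cleared background on all 3 PBS arrays but on 2 of 3 in Anakinra. These genes thus entered the test through the group where they are high. With genes above background on all 6 arrays, 8 target genes were called lower. Of 17 suprabasal differentiation genes 10 were called higher and 7 did not pass, where 0.970% of all genes tested were called higher. Their median was 0.81, with Krt1 at 2.35 and Calm5 at 2.53. With the slide as a block, 1 of the 17 was called, while Krt1 was still at 2.32 and Calm5 at 2.56. The count of suprabasal calls was 0 without PBS 1 or PBS 2, 3 without PBS 3, 1 without Anakinra 1 and 6 without Anakinra 3, with Krt1 between 2.18 and 2.46 and Calm5 between 2.43 and 2.68 over the arrays left out. The count of IL-1 target calls was 5 without PBS 1 and 2 without PBS 2, with Cxcl5 between -5.20 and -4.82 and Tnf between -2.69 and -2.54. Of the markers of other cells, 2 of 8 fibroblast genes and 1 of 5 tested hair follicle genes rose, and no melanocyte, immune or endothelial gene passed. Summed over the list on the linear scale, the fibroblast markers ran from 9.39 to 11.4 times the 75th percentile of the array in PBS and from 12.5 to 14.8 in Anakinra, and 4 of the 8 immune markers, Ptprc, Cd3e, Itgam and Adgre1, did not enter the test. The part of these cell-state and cell-type changes in the differences of Mt1, Mt2, Slc39a4 and Slc39a10 was not tested.

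The genes most like Mt2 across the 6 arrays were sought among 12367 named genes that cleared background on each array. The highest Pearson correlations of scaled log2 signal with Mt2 were those of Serp2 at 0.999, Foxc2 at 0.998, Cd47 at 0.997, Nufip1 at 0.996 and Il1a, the gene of IL-1 alpha, at 0.996. Mt1 correlated with Mt2 at 0.986, Slc39a4 at 0.958 and Slc39a10 at -0.934. For Slc39a4, those among the most alike were Mei4 at 0.995, Stambpl1 at 0.993, Cyp3a13 at 0.993 and St3gal1 at 0.992. Each of these coefficients rests on 6 arrays in 2 groups, and any gene whose groups lie apart in the same direction correlates highly, so the list is a description of these arrays.

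**Figure D4:**
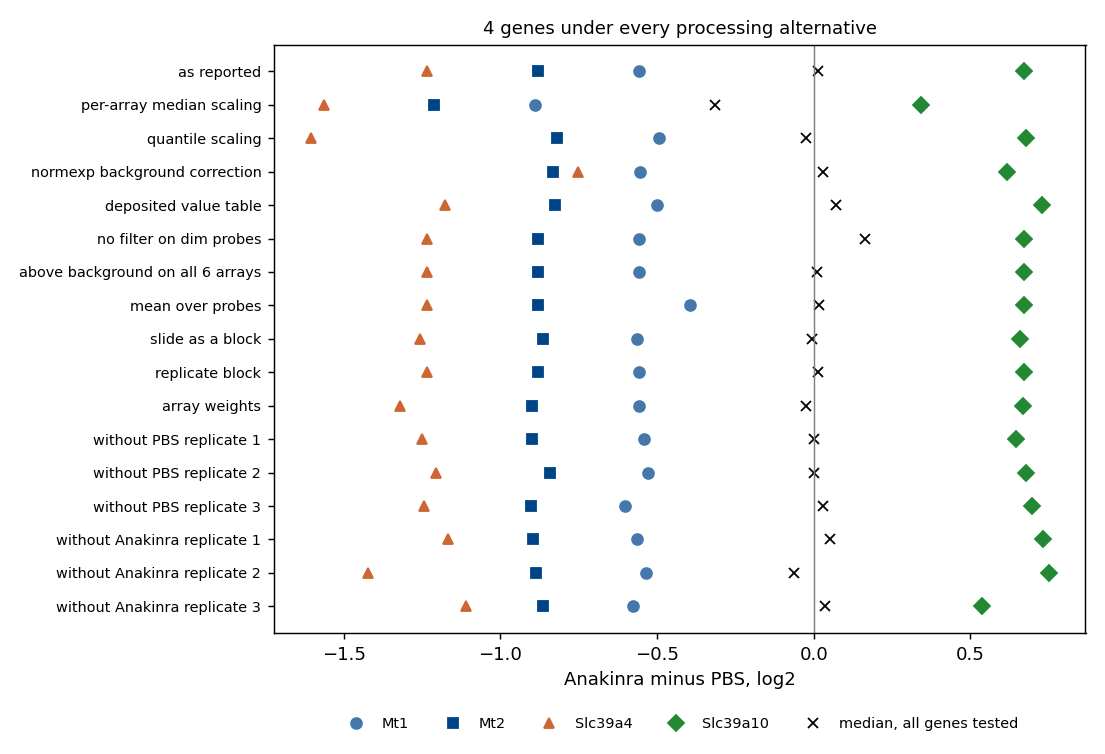
Difference Anakinra minus PBS on the log2 scale (horizontal axis) of Mt1, Mt2, Slc39a4 and Slc39a10 under each processing alternative (rows), with a cross for the median of all genes tested. Mt1, Mt2 and Slc39a4 stay below 0 and Slc39a10 above 0 in every row, while Slc39a4 moves between -1.60 and -0.75.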

How the data were processed

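Total RNA of 6 cultures was read on 6 one-colour arrays. Per the file headers, the authors' processed intensity came from Agilent Feature Extraction 9.5.3.1, background-subtracted and detrended within each array, with no normalisation between arrays. The authors' deposited log2 table equals the log2 of that intensity plus 1 constant per array, to within 0.001; how those constants were set is unknown here. Control and outlier spots were left out, spots of a probe averaged, and 75th percentiles subtracted. Probes that cleared background on every array of 1 group or both, with 2 or more values a group, were tested, and the brightest stood for its gene. RefSeq tables (GRCm38.p6) updated names of 33023 of 41174 probes. Differences were fitted with limma 3.58.1 under R 4.3.3 (lmFit, eBayes, two-sided, Benjamini-Hochberg). Tested on simulated data for this comparison, the fit recovered 62.7% of genes given a log2 change of 1 and 82.6% given a log2 change of 2. The simulated noise was independent, equal on all 6 arrays for a gene and free of slide effects, so these shares hold for that simpler case. Precision is limited by having 3 arrays in each group. The members, lists and tests were chosen with earlier results of these data known. Named genes were the 10 members, tested family genes, up to 4 called or the 2 nearest of each other list, and the 5 most alike to Mt2 and to the member with the largest difference, of which 1 is not reported here. The labels do not say whether same-numbered replicates were paired. Their deviations from the group means correlated at 0.41, -0.49 and -0.21. Differently numbered arrays reached 0.70, for PBS 3 with Anakinra 2, and -0.67, for PBS 3 with Anakinra 1. With 3 arrays in each group these values can neither show nor exclude pairing. The main fit was unpaired, and a replicate block was run as an alternative.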

Additional observations from a re-analysis of the deposited data

How the results depend on the processing

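Mt1, Mt2 and Slc39a4 stayed lower and Slc39a10 higher in Anakinra under each alternative run; where a value moved, the cause was not tested. Leaving out 1 array at a time, Mt1 ran from -0.60 to -0.53, Mt2 from -0.90 to -0.84, Slc39a4 from -1.42 to -1.11 and Slc39a10 from 0.54 to 0.75. With per-array medians Mt1 was at -0.89, Mt2 at -1.21 and Slc39a4 at -1.56; with the mean over probes Mt1 was at -0.39; with quantile scaling Mt2 was at -0.82 and Slc39a4 at -1.60; with the deposited table Mt2 was at -0.82; and with normexp Slc39a4 was at -0.75. Dim genes such as Mt4, Slc39a2 and Slc39a5 are limited by signal over background.

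Over all genes, 160 were higher and 132 lower as reported. These counts were 8 and 49 with per-array medians, 7 and 29 with no filter on dim probes, 338 and 240 with the filter on all 6 arrays, and 18 and 35 with the slide as a block. Without 1 array they ran from 1 to 97 and from 7 to 137. Whether the replicate numbers pair the samples is not known. With a replicate block the limma counts were 0 and 0, with 1768 genes at an unadjusted p under 0.05. None of the members and 0 iron, suprabasal and IL-1 target genes passed with that block.

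Among the lists, 1 copper gene was lower with per-array medians and 1 with the mean over probes. Lower iron genes numbered 1 with quantile scaling, 1 with no dim filter, 1 with the filter on all 6 arrays, 1 with array weights and 0 with the slide as a block, and 1 iron gene was higher with the filter on all 6 arrays. Of the glucocorticoid-responsive genes 1 was lower with the deposited table, 1 with the filter on all 6 arrays and 1 with array weights, and 1 Nrf2 gene was lower with that filter. Suprabasal genes that were higher numbered 3 with per-array medians, 1 with no dim filter and 1 with the slide as a block. Without 1 array the ranges were 0 to 1 for higher iron, 0 to 1 for lower iron, 0 to 1 for lower glucocorticoid-responsive, 0 to 7 for higher suprabasal and 2 to 10 for lower IL-1 target genes.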
